A study of Mus musculus with 18 samples.

Results

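The genes described here are 9 core genes of hepatic insulin signaling: the insulin receptor Insr, its substrates Irs1 and Irs2, the PI3K subunits Pik3ca and Pik3r1, the kinases Akt1 and Akt2, and their targets Foxo1 and Gsk3b. They were selected by symbol from the 55487 genes of the count table, with earlier results of these counts known. The tests given for single genes are those of a fit over all genes. Neither these tests nor the later tests of ratios are independent evidence. All 9 were found and all 9 were abundant enough to be tested in both comparisons.

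Whole livers of male C57BL/6J mice were sequenced, each mouse giving 1 library, in 3 groups of 6 mice. Mice bought at 7 weeks of age were injected with an adeno-associated virus, serotype AAV8, and after 1 week were given a diet for 16 weeks. CON-GFP mice received the GFP vector and a purified control diet, FPC-GFP mice the same vector and the FPC diet, a high-fat diet with added fructose, palmitate and cholesterol, and FPC-LIPA mice the FPC diet and a vector for human LIPA, the lysosomal acid lipase. Mice on the FPC diet also drank water with fructose and glucose, so the diet comparison includes that water. Both vectors use the hepatocyte-active TBG promoter, so all 18 mice carried a virus, and all were fasted for 4 h before the livers were taken. The mouse Lipa row of the table does not check the human transgene, and no row for that transgene was used here.

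Insulin binds the receptor encoded by Insr, a tyrosine kinase, which phosphorylates the docking proteins encoded by Irs1 and Irs2. These recruit PI3K, a catalytic subunit (Pik3ca) bound to a regulatory subunit (Pik3r1), and the lipid it makes brings AKT kinases to the membrane to be activated. AKT then keeps the transcription factor FOXO1 out of the nucleus, which lowers transcription of glucose-producing genes, and inhibits the kinase encoded by Gsk3b, which allows glycogen to be made. Most of this signal travels by phosphorylation, which was not measured here, and what follows concerns mRNA.

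Levels are counts per M (CPM), scaled by TMM over all libraries. A gene was called at an adjusted p under 0.05 in edgeR's quasi-likelihood test, and was called differentially expressed (DE) where it also changed at least 2-fold. Total counts ranged from 16632146 to 37739301 per library. Each sample label ends in a sample sheet number. Fits on numbers 55 to 68 leave out CON-GFP 1, CON-GFP 2, FPC-GFP 20 and FPC-LIPA 37, which have higher numbers. Of these, CON-GFP 2 (17741598 counts), FPC-GFP 20 (17813507) and FPC-LIPA 37 (16632146) had the lowest totals of all libraries. All others had at least 25312928 counts. The part of depth in those fits was not tested. In FPC-LIPA 36, 37 and 39, genes for ribosomal proteins took 6.22% to 7.93% of the counts, against 1.99% to 2.73% in FPC-LIPA 31, 33 and 34, 1.32% to 1.65% in FPC-GFP and 1.60% to 2.35% in CON-GFP. The same 3 livers had lower levels of long genes relative to short genes, by 0.32 to 0.58 on the log2 scale. Their levels of GC-rich genes relative to GC-poor genes were lower too, by 0.36 to 1.38. This GC measure was also low in CON-GFP 2 (-0.63) and was highest of all libraries in FPC-LIPA 33 (0.64). Its group means were -0.004 in CON-GFP, 0.33 in FPC-GFP and -0.34 in FPC-LIPA. The cause of these differences was not tested, and each LIPA difference of the 9 genes is given with and without FPC-LIPA 36, 37 and 39. The 8 hepatocyte markers summed to means of 84151 CPM in CON-GFP, 74082 in FPC-GFP and 64508 in FPC-LIPA, a sum made up mostly of Alb (58675, 52691 and 43086 CPM). By edgeR 2 of the 8 were called lower with the diet and 1 with LIPA, and their median log2 differences were -0.24 and -0.33. From FPC-GFP to FPC-LIPA the means of Alb, Ttr, Serpina1a (1343 to 810 CPM), Hnf4a (493 to 244), Tat (537 to 341) and Cps1 (1116 to 798) fell. Those of Apob (3883 to 4056 CPM) and Apoa1 rose, and Apoa1 had its highest mean in FPC-LIPA (8982 CPM against 7459 in CON-GFP and 6946 in FPC-GFP). The 8 Kupffer cell markers summed to 142 to 295 CPM in CON-GFP, 404 to 710 in FPC-GFP and 490 to 1083 in FPC-LIPA, and the 10 monocyte and macrophage markers to 39.7 to 91.7, 105 to 325 and 450 to 686 CPM. The latter sum was made up mostly of Lyz2 (means of 50.5, 138 and 481 CPM). With LIPA 3 of the 8 Kupffer cell markers and 6 of the 10 monocyte and macrophage markers were called higher, and none lower. In whole liver a smaller share of hepatocytes and less RNA per hepatocyte cannot be told apart, and the part of the cell mixture in the results below was not tested.

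Promoters of Irs1, Irs2 and Akt1 hold short sequences tied to insulin signaling, and they are shown because those of Irs1 and Irs2 place the E-box and the insulin response element side by side. RefSeq windows on GRCm38.p6 were present for 8 of the 9 genes, with 13 windows in all, and the 250 bases before each start were searched on both strands. The letters below are in the direction of the gene, and capitals mark the insulin response element (TGTTTTG), the E-box (CACGTG) or the FOXO site (TGTTTAC).

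Irs1, chr1:82291536-82291562, minus strand, 115 bases before the start: ggctccgtCACGTGTTTTGctcctctg

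Irs1, chr1:82291457-82291479, minus strand, 32 bases before the start: ccgccgctTGTTTTGgttggggc

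Irs2, chr8:11008952-11008981, minus strand, 44 bases before the start: cgcagagtCACGTGtTGTTTTGctcttagt

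Akt1, chr12:112675031-112675053, minus strand, 161 bases before the start: taccctctTGTTTACactcctgg

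In Irs1 the E-box and the response element overlap, and in Irs2 they are separated by a single base. TGTTTTG occurs in 5.56% of all 32851 RefSeq windows, CACGTG in 6.02% and TGTTTAC in 3.17%. Another 4 motifs were searched. The shorter FOXO core TGTTT occurs in 46.4% of windows and in 8 of the 13, and the GC box GGGCGG in 32.7% and in 7 of the 13. The sterol response element TCACCCCAC and the cAMP response element TGACGTCA were in none of the 13, and occur in 0.496% and 1.55% of all windows. The motifs shown were chosen after seeing which ones occurred, and a match is a description of the letters, not of binding.

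Per length of exon, the kinases were the most abundant of the 9 genes in CON-GFP livers. Akt2 was at 13.0 ± 1.02 CPM per kb (mean ± SD, n = 6) and Akt1 at 10.04 ± 1.91. Insr followed at 7.53 ± 0.830 CPM per kb, Pik3r1 at 6.17 ± 0.421, Foxo1 at 4.93 ± 1.99 and Pik3ca at 3.46 ± 0.458. The lowest levels were those of Irs1 at 2.65 ± 0.555 CPM per kb, Irs2 at 2.56 ± 1.48 and Gsk3b at 2.33 ± 0.251, and these differed from one another by less than their spread. Foxo1 and Irs2 varied most between control mice, with coefficients of variation of 40.4% and 57.9%, against 6.82% for Pik3r1 and 7.91% for Akt2. The plot of the 9 genes by liver shows this spread.

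**Figure D1:**
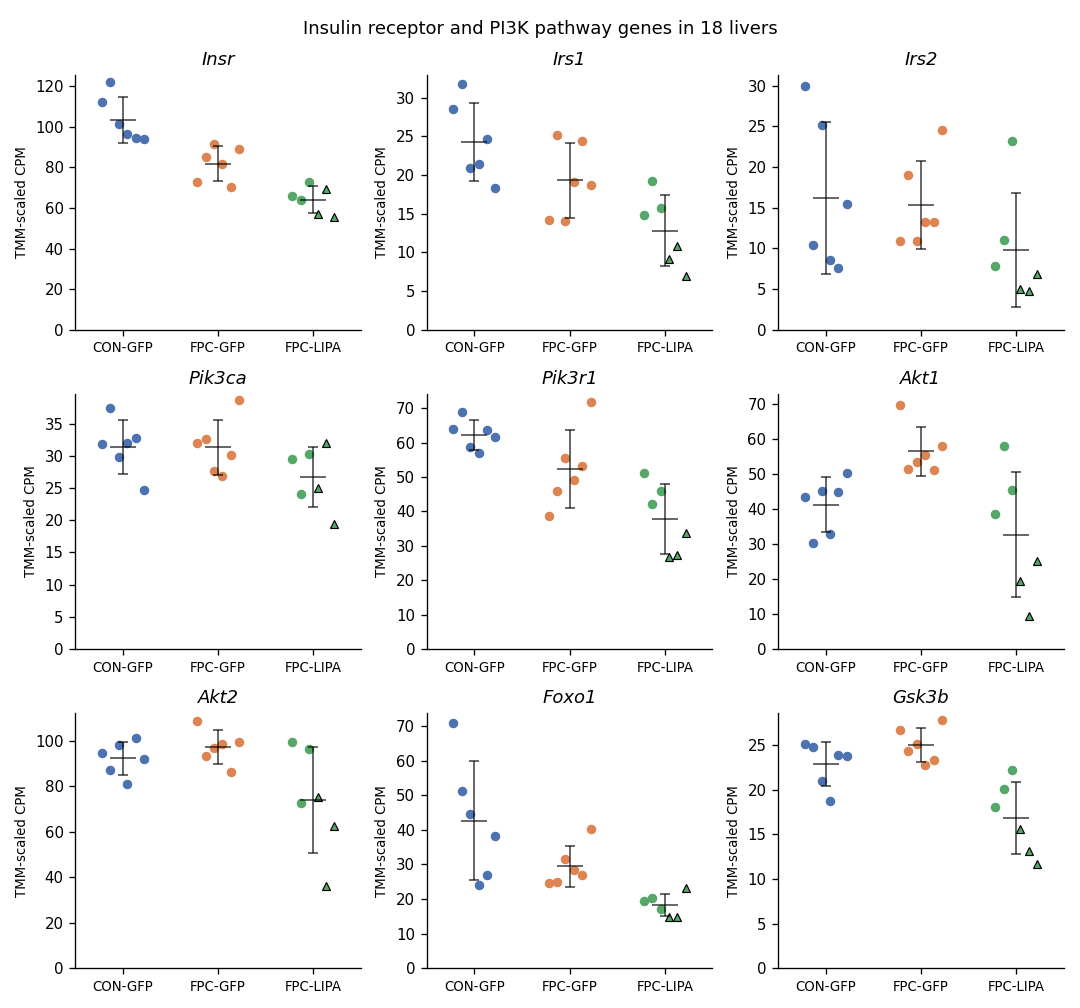
Level of each of the 9 genes in each liver (TMM-scaled CPM, linear axis from 0), with bars at the mean ± SD of the 6 livers of a group; triangles are FPC-LIPA 36, 37 and 39. Insr lies at 94.1 to 122 CPM in CON-GFP, above all FPC-GFP livers, and Foxo1 at 14.7 to 23.2 CPM in FPC-LIPA, below all FPC-GFP livers.

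The first comparison, FPC-GFP against CON-GFP, asks what the diet did to these genes in mice with the same vector. The receptor gene fell and Akt1 rose, and both changes were under 2-fold. Akt1 was called higher, where 12.9% of the 14307 tested genes were called higher, and Insr was called lower, where 10.9% were called lower. In both genes the 6 FPC-GFP livers did not overlap with the 6 CON-GFP livers, which was true of 10.4% of all tested genes. None of the 9 was DE, against 7.20% of all genes, and their median log2 difference was -0.07 beside 0.01 for all genes. At an unadjusted p under 0.05 there were 3 of the 9, by edgeR and by the DESeq2 Wald test. The 9 genes were called about as often as genes in general.

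Insr ranged from 94.1 to 122 CPM in CON-GFP (median 99.0) and from 70.4 to 91.5 CPM in FPC-GFP (median 83.6). All FPC-GFP livers were below all CON-GFP livers. The level fell by 20.7%, or by 0.34 on the log2 scale (SE 0.11, adjusted p = 0.0394 in edgeR's quasi-likelihood test). This call was near the threshold: the difference stayed lower in all 25 alternative fits and was called in 11. It was not called with the trend on GC content removed (-0.25, adjusted p = 0.0592), in the libraries with sample sheet numbers from 55 to 68 (-0.27, adjusted p = 0.121), or without any 1 of CON-GFP 1, 2, 3 and 6 and FPC-GFP 11, 12, 16 and 19 (-0.35 to -0.27, adjusted p from 0.0504 to 0.0929). Scaling by library size alone gave -0.13.

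The receptor substrates did not pass the test. Irs1 ranged from 18.3 to 31.7 CPM in CON-GFP (median 23.0) and from 14.1 to 25.2 CPM in FPC-GFP (median 19.0), and the groups overlapped. Its log2 fold change was -0.33 (SE 0.17, adjusted p = 0.183). Irs2, the substrate whose transcription FOXO1 promotes in fasted liver, ranged from 7.55 to 29.96 CPM in CON-GFP (median 12.9) and from 11.0 to 24.6 CPM in FPC-GFP (median 13.3). The fitted difference of Irs2 was -0.07, with a 95% interval from -0.76 to 0.63, so a change within this range in either direction was not excluded. Its direction turned with library size alone as the scaling (0.17) and without CON-GFP 1, CON-GFP 3, FPC-GFP 11 or FPC-GFP 13.

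Of the PI3K subunits, the catalytic gene Pik3ca was at 31.4 ± 4.17 CPM in CON-GFP and 31.3 ± 4.24 in FPC-GFP, with a 95% interval of the log2 difference from -0.26 to 0.27. The regulatory gene Pik3r1 ranged from 56.9 to 68.9 CPM in CON-GFP (median 62.5) and from 38.6 to 71.9 in FPC-GFP (median 51.2). Its difference was -0.24 (SE 0.14, adjusted p = 0.200), and FPC-GFP 20 alone was above all CON-GFP livers. Without that library the difference was -0.37 (adjusted p = 0.0291).

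Akt1 ranged from 30.2 to 50.3 CPM in CON-GFP (median 44.1) and from 51.0 to 69.8 CPM in FPC-GFP (median 54.3). All 6 FPC-GFP livers were above all 6 CON-GFP livers. The level rose by 37.8%, or by 0.46 on the log2 scale (SE 0.13, adjusted p = 0.0199 in edgeR's quasi-likelihood test), and it was called in 21 of 25 alternative fits and higher in all. Akt1 has the highest GC content of the 9 genes, 59.3% against a median of 49.9% over tested genes, and with the trend on GC content removed its difference was 0.23 (adjusted p = 0.0719). The sample sheet subset (55 to 68) gave 0.38 (adjusted p = 0.0976), and all 18 libraries in 1 fit gave 0.47 (adjusted p = 0.309).

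Akt2, the isoform known for metabolic control, was at 92.3 ± 7.31 CPM in CON-GFP and 97.2 ± 7.39 in FPC-GFP, a difference of 0.08 (SE 0.09, adjusted p = 0.556). Its direction turned with the trend on GC content removed (-0.06). Among the targets, Foxo1 ranged from 24.1 to 71.0 CPM in CON-GFP (median 41.4) and from 24.7 to 40.1 CPM in FPC-GFP (median 27.6). Its difference of -0.53 (SE 0.23, adjusted p = 0.103) was the largest in size of the 9 but did not pass the test, and the CON-GFP livers spread almost 3-fold. Without CON-GFP 6 it was -0.65 (adjusted p = 0.0455). Gsk3b was at 22.9 ± 2.47 CPM in CON-GFP and 25.02 ± 1.93 in FPC-GFP, with a difference of 0.13 (SE 0.10, adjusted p = 0.355), and was called in 1 alternative fit, that with library size alone (0.34, adjusted p = 0.0293).

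The second comparison, FPC-LIPA against FPC-GFP, asks what human LIPA did on the FPC diet. All 9 genes were lower in FPC-LIPA, where 6977 of the 14620 tested genes were lower, and their median log2 difference was -0.53 beside 0.04 for all genes. Foxo1 and Gsk3b were called lower, where 6.87% of all genes were called lower, and in both the groups did not overlap, as in 7.66% of all genes. None of the 9 was called higher, against 14.4% of all genes, and none was DE, against 11.4%. At an unadjusted p under 0.05 there were 5 of the 9 by edgeR and 6 by the DESeq2 Wald test. Without FPC-LIPA 36, 37 and 39 the 9 genes were still lower, with a median of -0.20 against 0.01 over all genes, and none was called by edgeR (2 of 9 at an unadjusted p under 0.05), while 169 genes of the 15246 tested in that fit were called higher and 17 lower. The FPC-GFP libraries enter both comparisons.

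Foxo1 ranged from 24.7 to 40.1 CPM in FPC-GFP (median 27.6) and from 14.7 to 23.2 CPM in FPC-LIPA (median 18.3). All FPC-LIPA livers were below all FPC-GFP livers. The level fell by 35.6%, or by 0.64 on the log2 scale (SE 0.18, adjusted p = 0.0261 in edgeR's quasi-likelihood test). The difference was as large without FPC-LIPA 36, 37 and 39 (-0.63, SE 0.18), though it then missed the threshold (adjusted p = 0.107), and those 3 livers at 14.7 to 23.2 CPM spanned the 17.2 to 20.2 CPM of FPC-LIPA 31, 33 and 34. It was lower in all 26 alternative fits and called in 20. The call was lost with the trend on gene length removed (-0.47, adjusted p = 0.0585), in the libraries with sample sheet numbers from 55 to 68 (-0.48, adjusted p = 0.0940), and without FPC-GFP 13, FPC-GFP 20 or FPC-LIPA 36 (-0.62, -0.52 and -0.59, adjusted p from 0.0540 to 0.0594).

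Gsk3b ranged from 22.8 to 27.8 CPM in FPC-GFP (median 24.7) and from 11.7 to 22.2 CPM in FPC-LIPA (median 16.9), with no overlap. The level fell by 30.5%, or by 0.53 on the log2 scale (SE 0.16, adjusted p = 0.0377). In contrast to Foxo1, FPC-LIPA 36, 37 and 39 held the 3 lowest values, 11.7 to 15.6 CPM against 18.1 to 22.2 CPM in the other FPC-LIPA livers. Without them the difference was -0.30 (SE 0.13, adjusted p = 0.248). Gsk3b was lower in all 26 alternative fits and called in 11, and it was not called without any 1 of the 6 FPC-GFP livers or without FPC-LIPA 36, 37 or 39 (-0.56 to -0.45, adjusted p from 0.0552 to 0.0783).

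The other 7 genes were lower in FPC-LIPA but did not pass the test. Akt1 ranged from 51.0 to 69.8 CPM in FPC-GFP and from 9.47 to 57.8 CPM in FPC-LIPA (median 31.8), a difference of -0.76 (SE 0.31, adjusted p = 0.0848). The wide spread divided by liver, with 9.47 to 25.1 CPM in FPC-LIPA 36, 37 and 39 and 38.4 to 57.8 CPM in the others, and without those 3 the difference was -0.24. Without FPC-LIPA 33, the highest, it was -0.997 (adjusted p = 0.0165). That library also had the highest GC measure of all 18 (0.64), and Akt1 is the most GC-rich of the 9 genes. Over all genes 2412 were called lower without FPC-LIPA 33, against 1004 with it. The part of the GC trend in this difference was not tested. Akt2 ranged from 86.2 to 109 CPM in FPC-GFP and from 36.2 to 99.5 CPM in FPC-LIPA, a difference of -0.35 (SE 0.20, adjusted p = 0.192) that was -0.11 without the 3 livers and turned to 0.07 with the trends on length and GC content removed together.

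Insr ranged from 55.7 to 72.9 CPM in FPC-LIPA (median 64.9) against 70.4 to 91.5 in FPC-GFP, so that few livers overlapped, and its difference was -0.29 (SE 0.15, adjusted p = 0.144). It was -0.27 without FPC-LIPA 36, 37 and 39 and -0.30 with the trends on length and GC content removed together. With the length trend alone removed it was -0.13 (adjusted p = 0.513), with the GC trend alone removed -0.42 (adjusted p = 0.0436), and with library size alone as the scaling -0.43 (adjusted p = 0.111). The group means of Insr thus stepped from 104 ± 11.4 CPM in CON-GFP to 81.8 ± 8.66 in FPC-GFP and 64.1 ± 6.67 in FPC-LIPA. Irs1 was at 19.3 ± 4.796 CPM in FPC-GFP and 12.8 ± 4.60 in FPC-LIPA (-0.55, adjusted p = 0.102), and without the 3 livers the difference was -0.20. Irs2 ranged from 4.81 to 23.2 CPM in FPC-LIPA (median 7.37), a difference of -0.61 (SE 0.35, adjusted p = 0.201) that became -0.13 without the 3 livers and -1.05 (adjusted p = 0.0173) without FPC-LIPA 34.

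Pik3r1 ranged from 26.7 to 51.1 CPM in FPC-LIPA (median 37.9), a difference of -0.43 (SE 0.20, adjusted p = 0.120), and of -0.17 without the 3 livers. Pik3ca ranged from 19.4 to 31.9 CPM in FPC-LIPA (median 27.3), a difference of -0.17 (SE 0.17, adjusted p = 0.456), and of -0.16 without the 3 livers. Pik3ca has the lowest GC content of the 9, 41.1%, and with the trend on GC content removed its difference was -0.62 (adjusted p = 0.0369). The plot of fitted differences sets these values side by side.

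**Figure D2:**
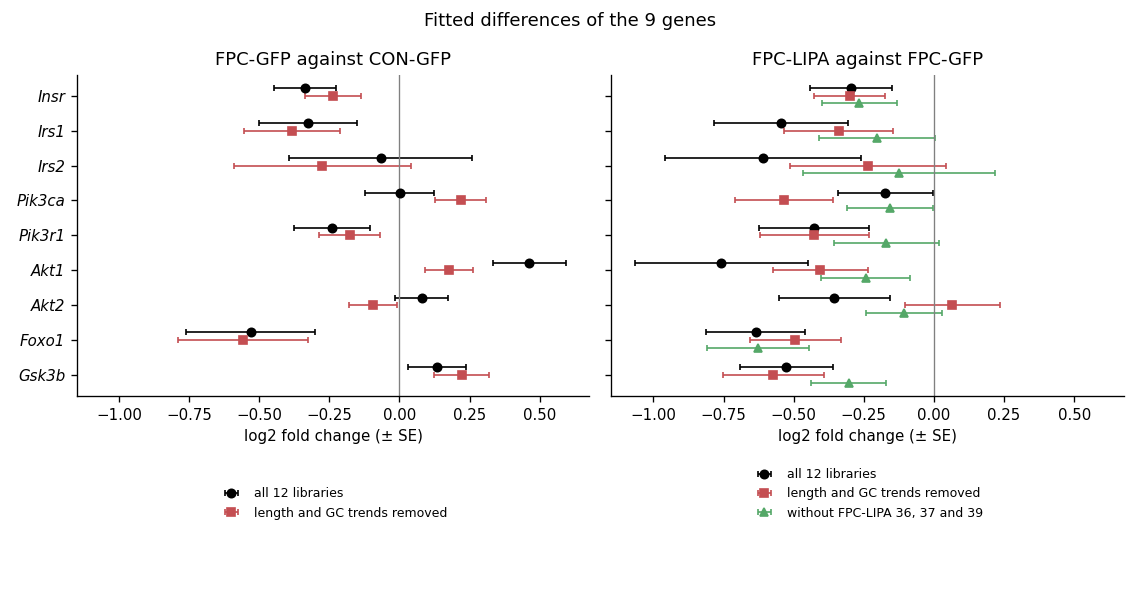
Log2 fold change ± SE of the 9 genes in both comparisons, with all 12 libraries of a comparison, with each library's trends on gene length and GC content removed, and without FPC-LIPA 36, 37 and 39. Without those livers Foxo1 goes from -0.64 to -0.63, where it was no longer called (adjusted p = 0.107), and Akt1 from -0.76 to -0.24.

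The levels of most of the 9 genes followed the ribosomal protein share of the libraries. Over the 18 libraries, Pearson's r between log2 CPM and the log2 share was -0.95 for Gsk3b, -0.88 for Akt1 and -0.82 for Akt2, but -0.57 for Foxo1 and -0.47 for Pik3ca. Within the 6 FPC-LIPA libraries r was -0.96 for Gsk3b and -0.20 for Foxo1. The points share depth and scaling, and the 3 libraries with high shares carry much of each r, so these are descriptions. All 9 genes are longer in exon bases than the median tested gene of 4091 bases, from 4098 for Akt1 to 13746 for Insr.

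**Figure D3:**
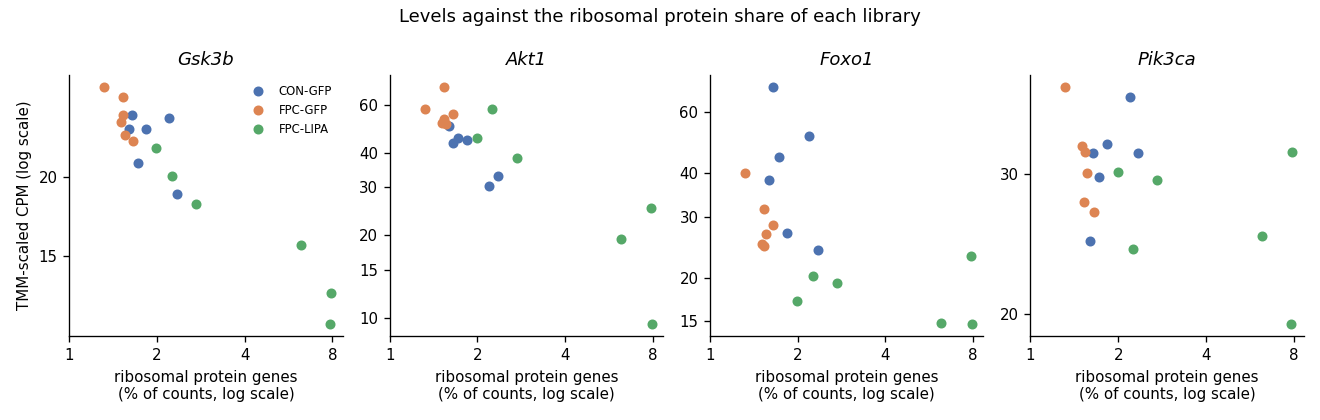
Level of Gsk3b, Akt1, Foxo1 and Pik3ca (TMM-scaled CPM, log axis) against the share of counts in ribosomal protein genes (percent, log axis), 1 point per library, colored by group. Gsk3b descends along the share from 27.8 to 11.7 CPM, whereas Foxo1 is low in FPC-LIPA libraries at both low and high shares.

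Ratios of paired genes within a liver do not depend on the scaling between libraries. They can still carry each library's trends on gene length and GC content. Akt1 has fewer exon bases and a higher GC content than Akt2. The ratios were not tested with these trends removed. The ratio of Akt2 to Akt1 counts was 2.30 ± 0.351 in CON-GFP (range 1.83 to 2.88) and 1.73 ± 0.100 in FPC-GFP (range 1.56 to 1.82), so that all FPC-GFP livers were below all CON-GFP livers. The difference of the log2 ratio was -0.40, with an exact two-sided permutation p = 0.00216, the smallest that 924 assignments can give, and p = 0.0130 after adjustment over the 6 ratio tests. Akt1 alone already separated these groups, so the ratio reuses that separation and is not independent evidence. The share of other gene pairs that separate this way was not counted. In FPC-LIPA the ratio spread from 1.26 to 3.89 (2.69 ± 1.01), and its difference from FPC-GFP was 0.54 (exact permutation, adjusted p = 0.156). Without FPC-LIPA 36, 37 and 39 that difference was 0.14 (adjusted p = 0.732). Without FPC-LIPA 33, which held the lowest ratio, it was 0.74 (adjusted p = 0.00649), and all other FPC-LIPA livers were above the FPC-GFP range.

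The ratio of Irs2 to Irs1 was 0.688 ± 0.395 in CON-GFP, 0.808 ± 0.261 in FPC-GFP and 0.762 ± 0.398 in FPC-LIPA, and neither comparison passed the test (exact permutation, adjusted p = 0.392 and 0.600). The LIPA difference of this log2 ratio was -0.17, and -0.03 without FPC-LIPA 36, 37 and 39. The ratio of Pik3r1 to Pik3ca was 2.00 ± 0.251, 1.68 ± 0.305 and 1.44 ± 0.389. Its log2 differences were -0.27 for the diet and -0.25 for LIPA (exact permutation, adjusted p = 0.156 and 0.392), and the second was 0.01 without FPC-LIPA 36, 37 and 39.

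**Figure D4:**
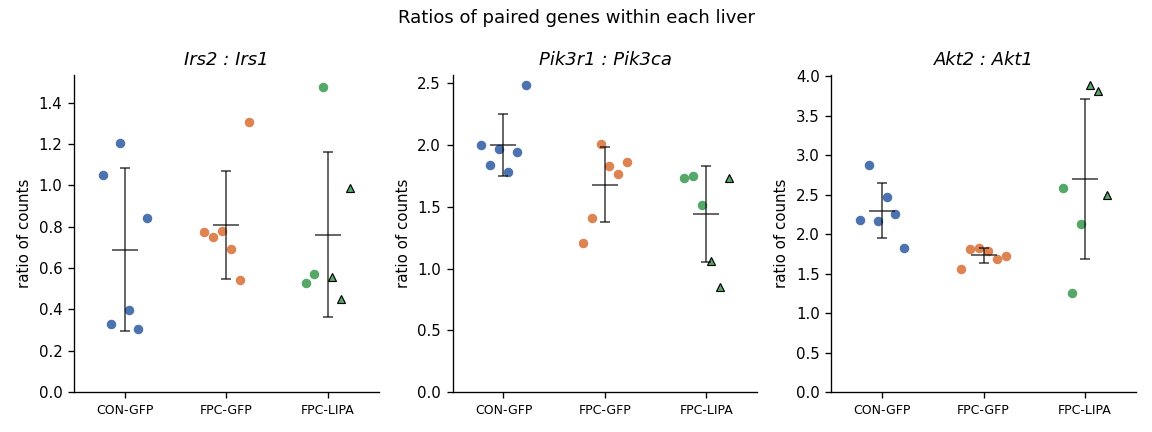
Ratio of counts of Irs2 to Irs1, Pik3r1 to Pik3ca and Akt2 to Akt1 in each liver, with bars at the mean ± SD of 6 livers and triangles for FPC-LIPA 36, 37 and 39. The Akt2 to Akt1 ratio lies between 1.56 and 1.82 in all FPC-GFP livers and between 1.26 and 3.89 in FPC-LIPA.

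The 9 genes moved together in part. Over 18 libraries the highest Pearson's r of log2 CPM between 2 of them was 0.86, for Akt1 and Akt2, and it was 0.81 after the group means were removed. Insr was related to Foxo1 (0.82), Pik3r1 (0.81) and Irs1 (0.78), with values of 0.43, 0.46 and 0.45 within groups, and the lowest r was that of Pik3ca with Akt1, 0.11 over all libraries, -0.22 within groups and -0.78 in the 6 CON-GFP livers. Pik3ca and Akt1 have the lowest and the highest GC content of the 9 genes (41.1% and 59.3%). The GC measure of the CON-GFP libraries ran from -0.63 to 0.36, and its part in this r was not tested. Among the 7803 genes with a mean of at least 10 CPM, those with the pattern most like Insr were Ulk2 (r = 0.93), Crebl2 (0.92) and Bhmt2 (0.92). Those most like Irs1 were C2cd2, Anp32a and Dusp16, each at 0.90, and those most like Irs2 were Nectin2 (0.87), Cyp2f2 (0.84) and Rnf214 (0.84).

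Another 71 genes of the pathway were listed by role, of which 66 were tested in the diet comparison. There 9 were called higher and 5 lower, and 7 were DE, where 12.9%, 10.9% and 7.20% of all tested genes were. The called genes with the largest log2 differences were lipogenic and glycogen genes. Ppp1r3b, which targets a protein phosphatase to glycogen, fell from 438 ± 74.8 to 151 ± 37.1 CPM (-1.53, adjusted p = 0.000109 in edgeR's quasi-likelihood test) and was the 1 gene of 7 called in the GSK3 and glycogen list. Of 4 insulin-induced lipogenic genes, 3 rose: Srebf1, the lipogenic transcription factor, from 164 ± 45.2 to 457 ± 79.7 CPM, Fasn, the fatty acid synthase, from 216 ± 130 to 719 ± 107 CPM, and Pnpla3 from 1.45 ± 1.05 to 4.45 ± 1.86 CPM. Of 6 FOXO1 targets, 3 fell: Ppargc1a (-1.17), Igfbp1 (-0.98) and Pck1, which encodes the gluconeogenic enzyme PEPCK (-0.85, from 2283 ± 973 to 1262 ± 268 CPM), with adjusted p from 0.00869 to 0.0304. Ppp1r3b, Srebf1, Fasn and Ppargc1a were called in all 25 alternative fits, Igfbp1 and Pnpla3 in 24 and Pck1 in 15.

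Among 12 PI3K subunit genes the immune cell isoforms Pik3cd (1.01, adjusted p = 0.00401) and Pik3cg (1.27, adjusted p = 0.0170) rose on the diet and Pik3c2g, a class II enzyme of liver, fell (-0.85, adjusted p = 0.0120). Beside them, all 8 Kupffer cell markers and 7 of 10 monocyte and macrophage markers were called higher in the same comparison. Pik3cg had few counts, 4 to 16 per CON-GFP library and 8 to 56 per FPC-GFP library. Among the kinases that act on AKT and their partner subunits, Mtor rose (0.57, adjusted p = 0.00528). Of 15 tested negative regulators 2 rose, Inppl1 (0.44) and Grb10 (0.54), and of 9 mTORC1 genes 1 rose, Tsc2 (0.44), with adjusted p from 0.0293 to 0.0441. Mtor and Pik3cd were called in all 25 alternative fits, but Inppl1 in 17, Grb10 in 12 and Tsc2 in 11. None of the 5 tested receptors and adaptors was called by edgeR's quasi-likelihood test (1 at an unadjusted p under 0.05, and 1 called by the DESeq2 Wald test). None of the 2 tested FOXO family genes was called by either, with 1 at an unadjusted p under 0.05.

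Under LIPA, 67 of the 71 genes were tested, and 1 was called higher and 12 lower, with 1 DE, where 14.4%, 6.87% and 11.4% of all tested genes were. Both tested relatives of Foxo1 fell with it: Foxo3 from 31.8 ± 8.13 to 16.8 ± 4.30 CPM (-0.87, adjusted p = 0.0180) and Foxo4 from 25.2 ± 3.01 to 13.5 ± 5.97 CPM (-0.86, adjusted p = 0.0292). Gsk3a, the paralog of Gsk3b, fell from 60.3 ± 4.73 to 32.1 ± 15.9 CPM (-0.87, adjusted p = 0.0326), and Gys2, the liver glycogen synthase, from 201 ± 59.3 to 110 ± 28.9 CPM (-0.83, adjusted p = 0.0292). Rptor, the defining subunit of mTORC1, fell by 0.80 on the log2 scale (adjusted p = 0.0141), and Mtor, Mapkap1, Shc1, Pik3r4, Phlpp1, Grb7 and Fasn fell by 0.41 to 0.76. Pik3r5, a regulatory subunit of leukocytes, was the only gene called higher (1.37, adjusted p = 0.0474), and 5 of 9 leukocyte markers were called higher beside it. It was at 9.29 CPM in FPC-LIPA 33 and at 0.78 to 3.51 CPM in the other FPC-LIPA livers. Its difference was 0.85 to 1.66 leaving out 1 library. FPC-LIPA 33 stays in the fit without FPC-LIPA 36, 37 and 39. None of the 6 FOXO1 targets was called by edgeR or by the DESeq2 Wald test, with 0 and 1 of them at an unadjusted p under 0.05. Rptor was called in 24 of 26 alternative fits, Foxo3 in 22, Gys2 in 19, Foxo4 in 16, Gsk3a and Pik3r5 in 14 and Fasn in 7. Phlpp1 was called in 21, Grb7 in 17, Mapkap1 in 13, Shc1 and Pik3r4 in 10 and Mtor in 8. Over the alternative fits the difference of Mtor ran from -0.54 to -0.0091. Without FPC-LIPA 36, 37 and 39 the 13 genes kept their direction, with log2 differences of -0.65 for Foxo3, -0.40 for Foxo4, -0.40 for Gsk3a, -0.64 for Gys2, -0.53 for Rptor and 1.77 for Pik3r5, and of -0.50 to -0.29 for the other 7. In that fit none of the 71 genes was called by edgeR, with 16 at an unadjusted p under 0.05, and the sample sheet subset gave 0 calls and 18 at that level. Of the 14736 genes tested in that subset, 100 were called higher and 4 lower.

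**Figure D5:**
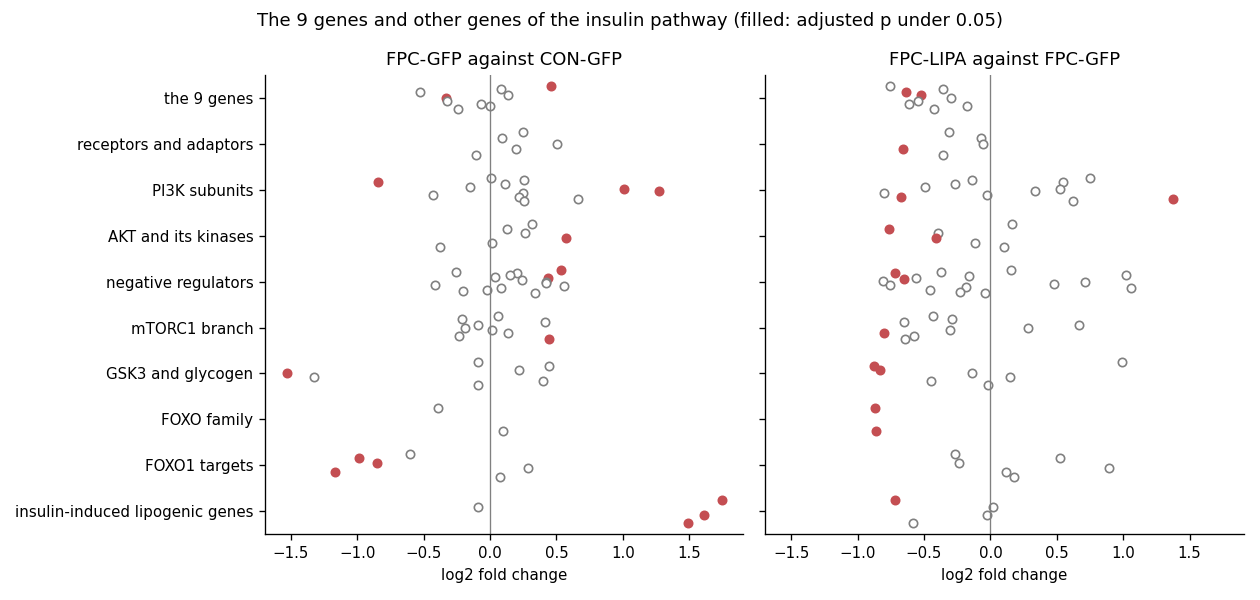
Log2 fold change of the 9 genes and of each tested gene of 9 pathway lists in both comparisons, 1 point per gene, filled red where the adjusted p was under 0.05. On the diet the filled points range from -1.53 (Ppp1r3b, glycogen) to 1.74 (Fasn, lipogenic), and under LIPA all but that of Pik3r5 lie below 0.

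The most abundant gene of each list by CPM, a scale that also grows with gene length, was Pygl for glycogen (477 ± 91.0 CPM in CON-GFP), Pck1 for FOXO1 targets (2283 ± 973), Fasn for lipogenic genes (216 ± 130), Deptor for the mTORC1 branch (145 ± 25.6), Ptprf for negative regulators (93.4 ± 27.2), Shc1 for adaptors (51.6 ± 10.3), Foxo3 for the FOXO family (41.9 ± 7.89), Mtor for the kinases that act on AKT and their partners (38.3 ± 7.81) and Pik3c2a for PI3K subunits (28.4 ± 10.3).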

How the data were processed

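RNA-Seq of 18 mouse livers was used. The authors trimmed reads with Trimmomatic, mapped them with HISAT2 2.1.0 to GRCm38 (mm10) and counted them per gene with Subread's featureCounts, and the deposited values are raw counts. The strand setting is not given in the sources used here, so reads of overlapping antisense genes are uncertain. Another 5 columns of counts were not used. Samples were grouped by vector and diet as the labels give them.

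Each comparison was fitted on its 12 libraries with filterByExpr, TMM scaling and edgeR's quasi-likelihood test (edgeR 4.0.16, R 4.3.3), with Benjamini-Hochberg adjustment over all tested genes and a SE equal to the size of the log2 fold change over the square root of F. The test was tried on simulated data. Ratios of counts (prior 0.5) were compared with exact two-sided permutation tests. Lengths, GC content and the choice of protein-coding ribosomal genes used GENCODE M21, and promoters RefSeq. Markers were matched by symbol in the count table. The log2 CPM used for correlations had a prior count of 2. All p-values measure the spread between mice. Libraries of a group differed by 15.4 to 591 times the counting noise (chi-square per degree of freedom), so no 2 were the same library. Counting error is small at this depth for genes with many counts, but not for those with few. Pik3cg had 4 to 16 counts per CON-GFP library, Pnpla3 10 to 84 per CON-GFP library and Pik3r5 14 to 93 per FPC-GFP library.

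The members and gene lists were chosen with earlier results of these data known. Named were the 9 genes, in each pathway list the gene with the highest mean CPM and up to 3 called genes with the smallest p in each comparison, and the 3 genes most like Insr, Irs1 and Irs2. As alternatives, TMM was replaced by DESeq2 size factors, by upper-quartile factors or by library size alone, and the test by the Wald test of DESeq2 1.42.0 or edgeR's likelihood ratio or exact test. The filter was dropped or set to 1 CPM in 6 or more libraries. Other fits held all 18 libraries, held the subset with sheet numbers 55 to 68, or took out a per-library trend on length or on GC content. Further alternatives were each library left out, FPC-LIPA 36, 37 and 39 left out, an adjusted p under 0.01, and a prior of 5 for ratios. Removal of both trends together was chosen after seeing the data.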

Additional observations from a re-analysis of the deposited data

Results flagged for a closer look

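In 4 of 39 groups of 6 livers, 1 liver stood apart from the other 5 by a gap above Dixon's 95% critical value for its group. Chance gives about 1 such group in 20. Akt1 in FPC-GFP 11 was at 69.8 CPM, against 51.0 to 57.8 CPM in the other FPC-GFP livers. Irs2 in FPC-LIPA 34 was at 23.2 CPM, against 4.81 to 11.0 CPM in the others of its group. The ratio of Irs2 to Irs1 in FPC-GFP 20 was 1.31, against 0.544 to 0.778, and the ratio of Pik3r1 to Pik3ca in CON-GFP 8 was 2.49, against 1.78 to 2.00. The cause of these values was not tested.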

How the results depend on the processing

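Of the 9 genes, 2 were called in each comparison. In the diet comparison 1 was called with no filter, and 0 with all 18 libraries in 1 fit, with sample sheet numbers from 55 to 68, with the GC trend removed, with both trends removed and at an adjusted p under 0.01. With LIPA 1 was called with upper-quartile factors, library size alone or no filter, 4 with the GC trend removed, and 0 with the length trend removed, with sheet numbers from 55 to 68, without FPC-LIPA 36, 37 and 39 and at an adjusted p under 0.01. Leaving out 1 library gave 1 to 3 and 0 to 4 calls (0 without FPC-GFP 13 or 20 or FPC-LIPA 36, 4 without FPC-LIPA 33), with 0 to 1 DE under LIPA (Irs2, without FPC-LIPA 34). Of the other pathway genes 14 were called with diet (10 to 15 leaving out 1 library), 8 with all 18 libraries and 6 at 0.01. With LIPA 13 were called (3 without FPC-GFP 12, 13 or 20 or FPC-LIPA 36, to 23 without FPC-LIPA 33), 8 with upper-quartile factors or no filter, 4 with library size alone, 21 by the DESeq2 Wald test, 20 with all 18 libraries, and 0 at 0.01, with sheet numbers from 55 to 68 or without the 3 livers. Calls over all genes moved in the same way. With LIPA 2098 were called higher and 1004 lower in the main fit. These counts were 886 and 206 without FPC-LIPA 36, 1034 and 270 without FPC-GFP 20, and 3170 and 2412 without FPC-LIPA 33. With sheet numbers from 55 to 68 they were 100 and 4. With diet they were 1850 and 1560 in the main fit, and 877 and 475 with all 18 libraries. Directions reversed for Irs2 with diet (0.17 with library size alone, -0.26 to 0.20 leaving out 1 library), Pik3ca with diet (-0.014 with DESeq2 size factors or its Wald test, -0.039 without the length trend, -0.079 to 0.064 leaving out 1 library), Akt2 (-0.060 and -0.095 with diet and the GC trend or both removed, 0.066 with LIPA and both removed), the ratio of Irs2 to Irs1 with LIPA (0.11 with sheet numbers from 55 to 68, -0.39 to -0.02 leaving out 1 library) and that of Pik3r1 to Pik3ca (0.0070 without the 3 livers, -0.34 to -0.11). The ratio of Akt2 to Akt1 with LIPA was 0.42 to 0.74 leaving out 1 library. Library size alone moved the median of all genes to 0.21 with diet and -0.09 with LIPA. The cause of these changes was not tested, beyond the fewer samples of the reduced fits. No paired analysis was possible because the groups share no mouse numbers.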
